A study of Homo sapiens with 18 samples.

Results

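The difference between the LIS1+/- genotype effect in stem cells and that in organoids at Day 12 was described over 12 of the 18 libraries of a study of human cortical organoids. The 12 were chosen by their labels. They comprise 3 libraries each of LIS1+/+ stem cells, LIS1+/- stem cells, LIS1+/+ organoids at Day 12 and LIS1+/- organoids at Day 12. All were of the WIBR3 line of human embryonic stem cells (hESC), and the stem cells are the undifferentiated start of the course. LIS1+/+ is the wild type and LIS1+/- carries a single intact copy of LIS1, the gene with the official symbol PAFAH1B1. The labels do not say whether the LIS1+/- cells were 1 clone or several, or whether the repeats were separate cultures, so the p-values measure the spread between these libraries, which may be technical. The organoids hold many cells of several types, so fewer cells of a type and less RNA per cell cannot be told apart.

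RNA was counted by bulk MARS-seq, a 3′ tag method. The quantity described is the interaction, the log2 fold change of LIS1+/- over LIS1+/+ at Day 12 minus the same log2 fold change in stem cells. A negative interaction therefore means that LIS1+/- stood lower, relative to the wild type, at Day 12 than in stem cells. Levels are in CPM, the count of a gene scaled to its library's total after TMM normalization. They are compared here only between libraries for the same gene. Errors of log2 values are standard errors, each group has 3 libraries, and a gene was called when its Benjamini-Hochberg adjusted p in edgeR's two-sided quasi-likelihood test was under 0.05 over all 12215 genes tested.

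LIS1 is a regulator of cytoplasmic dynein, the motor that moves cargo toward the minus ends of microtubules, and people with a single working copy have lissencephaly, a cortex with too few folds. The extracellular matrix is the meshwork of collagens, laminins, proteoglycans and glycoproteins that surrounds cells. Integrins and focal adhesion proteins such as filamins tie it to the actomyosin cytoskeleton, in which myosin motors pull on actin filaments. Stem cells and neural progenitors both rest on basement membrane, and mesenchyme and neural crest derivatives are rich sources of fibrillar collagen.

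The libraries held 1425098 to 3237210 counts in gene rows. The names of the deposited files give each stage its own pool, so stage and pool cannot be told apart, while the genotypes were compared within a pool. A falling trend of counts with gene GC content set apart hESC LIS1+/+ replicate 3 (slope -0.0168) and Day 12 LIS1+/+ replicate 2 (slope -0.0267), against -0.00147 to 0.013 in the other 10. Day 5 LIS1+/- replicate 2 (slope -0.0228), outside the 12 but in the fit of all 18 libraries, was the third, and analyses without the libraries that stood apart in GC content leave out all 3. The names of the deposited files give the 3 LIS1+/- stem cell libraries the same repeat number, 1, where their labels number them 1 to 3; their counts differed by more than sampling noise (chi-square per degree of freedom 4.28 to 5.9). Reads that did not map uniquely made up 46.2% to 58.3% of the rows' total in LIS1+/+ stem cells and 34.9% to 52.5% in LIS1+/- stem cells. The pluripotency list summed to 10900 to 11400 CPM in LIS1+/+ and 9420 to 9750 CPM in LIS1+/- stem cells, without overlap. At Day 12 it summed to 683 to 918 CPM over both genotypes. The neural progenitor list summed to 1820 to 1990 CPM in LIS1+/+ and 2180 to 2390 CPM in LIS1+/- stem cells, also without overlap. Its Day 12 sums were 8780 to 14400 CPM over both genotypes.

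The targeted gene was examined first. PAFAH1B1 stood at 84.8, 72.1 and 111 CPM in LIS1+/+ stem cells and at 61.2, 51.4 and 55.9 CPM in LIS1+/- stem cells. At the end of the course it stood at 147, 218 and 140 CPM in LIS1+/+ and at 104, 114 and 76.1 CPM in LIS1+/- organoids. Every LIS1+/- library was below every LIS1+/+ library at both stages. The genotype effect was -0.67 ± 0.21 in stem cells (adjusted p = 0.173 by edgeR) and -0.78 ± 0.20 at Day 12 (adjusted p = 0.0372). The Day 12 call was lost in the fit of the 12 libraries alone (-0.78, adjusted p = 0.0616), without the libraries that stood apart in GC content (-0.55, adjusted p = 0.08) and with any of 6 of the 12 libraries left out, among them all 3 LIS1+/- organoid libraries (adjusted p up to 0.288). The interaction was -0.11 ± 0.28, with a 95% interval of -0.69 to 0.47 (adjusted p = 0.967). A difference in the size of the PAFAH1B1 deficit between the stages was not detectable beyond that interval. The LIS1, dynein and dynactin list, PAFAH1B1 included, had a median interaction of -0.05 over the 32 tested members, and 0 of them were called by edgeR, 0 by DESeq2, and 0 had an unadjusted p under 0.05.

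The genotype effect differed between the ends of the course in 46 of the 12215 genes (0.377%), of which 44 had a negative interaction (0.36%) and 2 a positive one (0.0164%). Among the 44 were collagens (COL2A1, COL3A1, COL12A1), basement membrane proteins (NID1, LAMB1, SMOC1), the actin crosslinker FLNC, the matricellular protein SPP1, the mesenchymal regulator TWIST1 and the Notch-related ligand DLK1. The negative interactions ran from -6.57 to -1.03 with a median of -1.94. The stem cell effect was above 0 and the Day 12 effect below 0 in 40 of the 44, both were below 0 in 3 (PKDCC, LGR4, FZD8) and both above 0 in 1 (COL2A1). Choosing genes by a negative interaction favours the first of these orders, and its share over all tested genes was not counted. Every LIS1+/- library was under every LIS1+/+ library at Day 12 for 38 of the 44, where 8.43% of all tested genes had such a pattern. In stem cells every LIS1+/- library was over every LIS1+/+ library for 30 of them, against 10.6% of tested genes. Both held for 24 of the 44, against 0.532% of tested genes; these patterns share their libraries with the call, and are given as a description.

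Read stage by stage, only DLK1, SPP1 and FLNC of the 44 were called in both arms, higher in LIS1+/- stem cells and lower in LIS1+/- organoids. The background was 60 calls in stem cells (0.491% of tested genes), 36 higher (0.295%) and 24 lower (0.196%), and 171 at Day 12 (1.4%), 41 higher (0.336%) and 130 lower (1.06%). Another 28 were called lower at Day 12 without a call in stem cells, 7 were called higher in stem cells without a call at Day 12 (RILPL1, S1PR3, TIMP3, CTNNBIP1, COL2A1, SIX3, BACH2), and 6 were called in neither arm (GPC3, PCK2, PEAR1, CDKN1C, GADD45A, AFAP1L2). Read along the course, 24 of the 44 rose from stem cells to Day 12 in the wild type and 11 did in LIS1+/-, while 13 fell in the wild type and 25 in LIS1+/-. Of all tested genes, 28.1% rose and 25% fell in the wild type, and 26.7% and 25.4% in LIS1+/-. The interaction equals the LIS1+/- change minus the LIS1+/+ change, so the difference between the genotypes restates how the 44 were chosen. At Day 5, the middle of the course, the fitted genotype effect lay between the effects of both ends for 32 of the 44. The 44 were chosen for a wide gap between the ends, so a Day 5 effect near 0 would often lie in it. The share over all tested genes was not counted. The Day 5 effect was called higher in 4 of the 44, against 0.671% of tested genes, and lower in 5, against 1.28%.

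**Figure D1:**
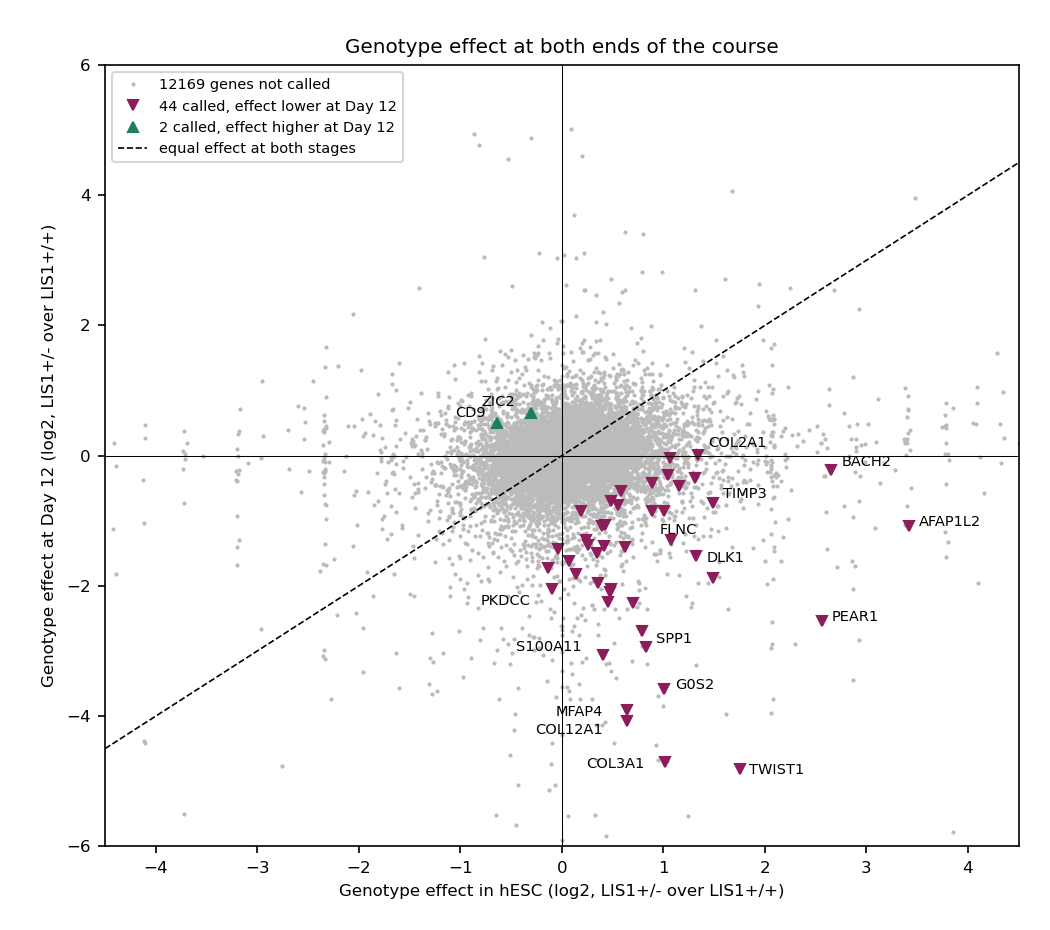
Genotype effect (log2 of LIS1+/- over LIS1+/+) in stem cells on the horizontal axis and at Day 12 on the vertical axis, 1 point per tested gene, with the 46 called genes as triangles. The 44 with a negative interaction lie below the dashed line of equal effect, 40 of them right of 0 and under 0. 30 genes lie outside the axes.

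The calls of DLK1, FLNC, FST, MFAP4, NID1, PKDCC, SPP1 and TWIST1 held in every alternative analysis, including each of the 12 libraries left out in turn. The number of calls was sensitive to single libraries. It was 11 without Day 12 LIS1+/- replicate 3, all 11 of them among the 46, and 138 without Day 12 LIS1+/+ replicate 2, with 44 of the 46 among them. COL12A1, G0S2, GPC3, LAMB1, PRKCD, SHISA2, SLC2A3 and SOX3 lost their call only without Day 12 LIS1+/- replicate 3 among the libraries left out, at adjusted p values up to 0.0952. No sign of a called interaction turned in any of these analyses, though PEAR1 could not be tested in the fit of the 12 libraries alone.

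DLK1 is an imprinted transmembrane ligand of the Notch family. It stood at 66.7, 64.8 and 66.4 CPM in LIS1+/+ stem cells and at 189, 138 and 166 CPM in LIS1+/- stem cells. In organoids at Day 12 it stood at 696, 1230 and 1580 CPM in LIS1+/+ and at 423, 417 and 363 CPM in LIS1+/- organoids. The LIS1+/- libraries were thus all higher in stem cells and all lower at Day 12, with no overlap at either stage. The effect was 1.32 ± 0.24 in stem cells (adjusted p = 0.0107) and -1.54 ± 0.23 at Day 12 (adjusted p = 0.000474), and the interaction was -2.86 ± 0.33 (adjusted p = 7.44e-05). Both genotypes rose over the course, by 4.15 on the log2 scale in the wild type and by 1.29 in LIS1+/-. At Day 5 the level peaked at 2180 to 3770 CPM in LIS1+/+ and 2210 to 3010 CPM in LIS1+/-, with overlapping groups. CDKN1C, another imprinted gene, encodes an inhibitor of cyclin-dependent kinases and had an interaction of -1.31 ± 0.29. Its call was lost without any of 10 of the 12 libraries (adjusted p up to 0.174). The imprinted gene list had 2 of its 16 tested members called, both negative, where 0.36% of all tested genes were called negative.

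FLNC, filamin C, crosslinks actin filaments and links them to integrins and to the Z disc of muscle. Its level in LIS1+/+ stem cells was 145, 159 and 132 CPM, and 288, 281 and 311 CPM in LIS1+/- stem cells. At Day 12 it was 47.8, 28.9 and 32.6 CPM in LIS1+/+ and 21.6, 23 and 16 CPM in LIS1+/- organoids. FLNC thus stood about 2.02-fold higher in LIS1+/- stem cells (log2 1.01 ± 0.18, adjusted p = 0.00575) and 1.81-fold lower in LIS1+/- organoids (log2 -0.85 ± 0.22, adjusted p = 0.0443), with no overlap at either stage. The interaction was -1.87 ± 0.28 (adjusted p = 0.00142). At Day 5 the groups overlapped, at 76.9 to 98 CPM in LIS1+/+ and 64.3 to 93.8 CPM in LIS1+/-.

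The window of 250 bases before the annotated start of FLNC is shown with that of COL12A1 because both called genes hold the core of the motif that TEAD factors, the DNA-binding partners of YAP, recognise. The letters searched were GGAATG on both strands. Matches are in capitals, and a match on the other strand reads CATTCC. The sequences are those of RefSeq on GRCh38.p14, 5′ to 3′ on the strand of the gene, at chr7:128830156-128830405 on the plus strand for FLNC and chr6:75206054-75206303 on the minus strand for COL12A1.
FLNC: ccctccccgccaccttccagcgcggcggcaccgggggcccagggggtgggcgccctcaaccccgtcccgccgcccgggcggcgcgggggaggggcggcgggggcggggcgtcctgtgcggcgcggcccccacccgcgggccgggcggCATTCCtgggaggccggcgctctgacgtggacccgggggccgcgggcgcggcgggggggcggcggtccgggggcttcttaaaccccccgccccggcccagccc
COL12A1: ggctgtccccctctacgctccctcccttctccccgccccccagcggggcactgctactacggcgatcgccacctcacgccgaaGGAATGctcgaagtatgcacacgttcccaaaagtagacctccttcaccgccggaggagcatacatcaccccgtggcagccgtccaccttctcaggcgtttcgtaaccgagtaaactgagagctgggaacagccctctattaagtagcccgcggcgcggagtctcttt
The match lay 103 to 98 bases before the start in FLNC and 167 to 162 bases before it in COL12A1. Of the 46 called genes, 31 matched an entry, with 41 windows in all. The TEAD core was in 3 of the 41 (7.32%; the third was PAMR1), in 9.83% of the windows of tested genes and in 11.9% of all 35116 windows. The CArG box, the serum response factor motif of many actin genes, was in 0 of the 41 windows and in 1.1% of those of tested genes, and the C/EBP-ATF composite TGATGNAAN in 0 and 1.58%. The letters TATAAA were in 3 of the 41 (7.32%; FZD8, PAMR1 and SMOC1) and in 5.32% of windows of tested genes. A match is a description of letters in this window and not a bound site.

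SPP1, osteopontin, is a secreted matricellular protein that binds integrins. It stood at 421, 468 and 514 CPM in LIS1+/+ stem cells and at 912, 814 and 761 CPM in LIS1+/- stem cells. At Day 12 only a trace was left, 5.82, 3.15 and 2.92 CPM in LIS1+/+ and 0.618, 0.569 and 0.285 CPM in LIS1+/- organoids. LIS1+/- libraries were all higher in stem cells (log2 0.83 ± 0.16, adjusted p = 0.0107) and all lower at Day 12 (log2 -2.94 ± 0.54, adjusted p = 0.00363). The interaction was -3.76 ± 0.56 (adjusted p = 0.00138). SPP1 fell along the course in both genotypes, with log2 changes of -6.90 in the wild type and -10.66 in LIS1+/-. At Day 5 it was called higher in LIS1+/-, at 18.4 to 20.2 CPM against 6.75 to 11.9 CPM (log2 1.08, adjusted p = 0.00321). The Day 12 arm rests on few counts, so its size is less certain than its direction over these 6 libraries.

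SPP1 was the only called member of the matricellular and YAP target list, of 24 tested, where 0.36% of all tested genes were called negative. The median interaction of that list was -0.48, against -0.03 over all tested genes, and 17 of the 24 lay below 0 (70.8%, against 52.7% of all tested genes). CYR61 and CTGF, secreted CCN proteins that are classic YAP targets, were not called in the interaction. CYR61 stood at 201, 210 and 248 CPM in LIS1+/+ and at 420, 420 and 439 CPM in LIS1+/- stem cells, and was called higher there (log2 0.95 ± 0.21, adjusted p = 0.0358). At Day 12 its groups overlapped, at 40.7 to 97.5 CPM in LIS1+/+ and 51.3 to 70.5 CPM in LIS1+/-. Its interaction was -1.12 ± 0.32 (adjusted p = 0.149), and without Day 12 LIS1+/+ replicate 1 it was -1.39 (adjusted p = 0.0236). CTGF had an interaction of -0.83 ± 0.31 (adjusted p = 0.371), with 246, 321 and 372 CPM in LIS1+/+ and 478, 541 and 554 CPM in LIS1+/- stem cells.

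**Figure D2:**
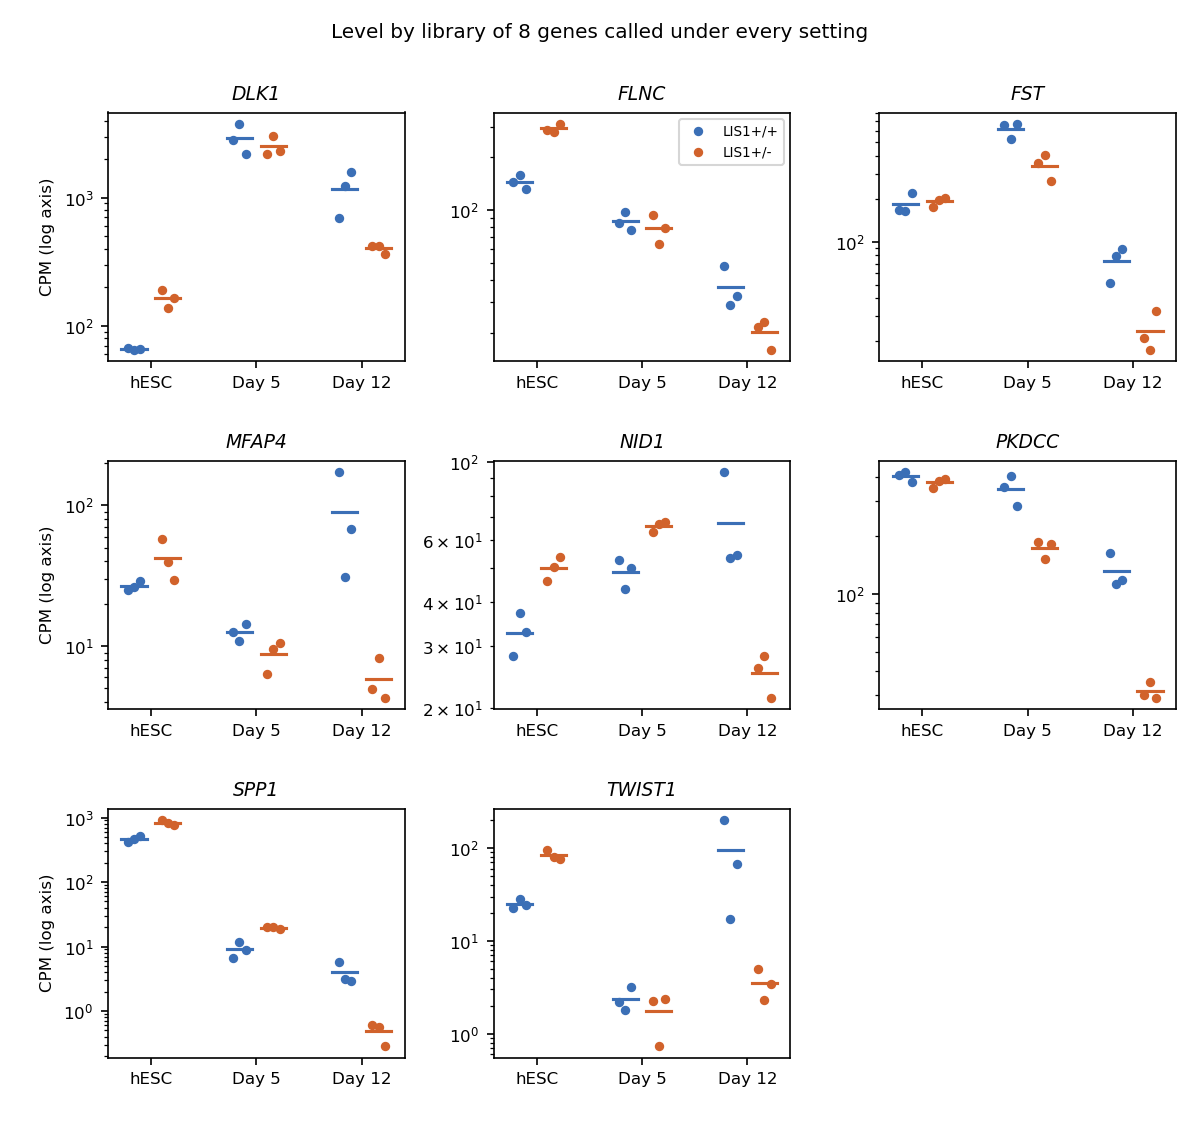
Level in CPM (log axis, scaled per gene) of 8 genes whose call held in every alternative, in stem cells, at Day 5 and at Day 12. Points are the 3 libraries of a group and bars their mean. At Day 12 every LIS1+/- point lies below every LIS1+/+ point in all 8, and in stem cells DLK1, FLNC, SPP1, NID1, MFAP4 and TWIST1 show the LIS1+/- points higher.

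Basement membrane genes had 3 called members of 16 tested, all negative, where 0.36% of all tested genes were called negative, with a median interaction of -0.65, against -0.03 over all tested genes. NID1, the nidogen that bridges laminin and collagen IV networks, stood at 28.1, 37.4 and 32.9 CPM in LIS1+/+ stem cells and at 46.1, 50.5 and 53.7 CPM in LIS1+/- stem cells. By Day 12 it stood at 93.7, 53.5 and 54.5 CPM in LIS1+/+ and at 26, 28.2 and 21.4 CPM in LIS1+/- organoids. The groups did not overlap at either stage, in opposite directions, though the stem cell arm alone was not called (log2 0.62 ± 0.22, adjusted p = 0.256). The Day 12 effect was -1.41 ± 0.22 (adjusted p = 0.000556) and the interaction -2.04 ± 0.31 (adjusted p = 0.00142). NID1 rose along the course in the wild type by 1.04 on the log2 scale and fell by 1.00 in LIS1+/-.

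LAMB1, the beta 1 chain of laminins, showed its difference mainly at Day 12. It stood at 76.9, 23.9 and 37.5 CPM in LIS1+/+ and at 16.7, 9.39 and 11.1 CPM in LIS1+/- organoids, every LIS1+/- library below every wild-type library. In stem cells the groups overlapped, at 65.7 to 98.7 CPM in LIS1+/+ and 95.6 to 128 CPM in LIS1+/-. Its interaction was -2.30 ± 0.41 (adjusted p = 0.00941, and 0.0524 without Day 12 LIS1+/- replicate 3). SMOC1, a calcium-binding matrix protein that antagonises BMP signalling, stood at 5.71, 11.4 and 5.59 CPM in LIS1+/+ and at 15.2, 16.7 and 15.1 CPM in LIS1+/- stem cells. At Day 12 the order was the opposite, with 88.5, 69.8 and 114 CPM in LIS1+/+ against 47.6, 29.6 and 35.9 CPM in LIS1+/-. The interaction of SMOC1 was -2.38 ± 0.46 (adjusted p = 0.0157), and the call was lost without any of 4 of the 12 libraries (adjusted p up to 0.0835). Neither LAMB1 nor SMOC1 was called in stem cells alone (adjusted p = 0.645 and 0.245).

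Collagens had 3 called members of 29 tested (35 listed), all negative, against the same 0.36%. Of the 29, 27 lay below 0 (93.1%, against 52.7% of all tested genes) and 15 lay below -1 (51.7%, against 9.64%). The median interaction was -1.04, with a median effect of 0.41 in stem cells and -0.49 at Day 12. It was -0.52 without Day 12 LIS1+/+ replicate 1. The summed collagen level was 2110 to 2310 CPM in LIS1+/+ and 2510 to 2790 CPM in LIS1+/- stem cells, and 2330 to 2890 CPM against 2270 to 2670 CPM at Day 12, where the groups overlapped.

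COL3A1, a fibrillar collagen of loose connective tissue, stood at 27.1, 17.4 and 30.4 CPM in LIS1+/+ and at 48.6, 42.4 and 60.9 CPM in LIS1+/- stem cells. At Day 12 it stood at 203, 15.1 and 64.2 CPM in LIS1+/+ and at 5.56, 2.85 and 3.13 CPM in LIS1+/- organoids. The wild-type organoids differed among themselves more than 10-fold, with replicate 2 the lowest, yet all 3 lay above LIS1+/-. The interaction was -5.72 ± 1.04 (adjusted p = 0.0257), and the call was lost without any of 8 of the 12 libraries (adjusted p up to 0.126). COL12A1, a collagen that decorates fibrils in tissue under load, stood at 113, 123 and 112 CPM in LIS1+/+ and at 169, 192 and 180 CPM in LIS1+/- stem cells. In the organoids it had 14 counts over the LIS1+/+ libraries and 1 over the LIS1+/- libraries, a pooled ratio of 23.3 with a 95% counting interval of 3.55 to 985. Its interaction call (adjusted p = 0.0116) therefore rests on a level that had nearly gone in both genotypes, and was lost without Day 12 LIS1+/- replicate 3 (adjusted p = 0.0952).

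COL2A1, the fibrillar collagen of cartilage and of early neuroepithelium, behaved otherwise. It stood at 13.8, 12.7 and 12.4 CPM in LIS1+/+ and at 34.1, 28.4 and 36.8 CPM in LIS1+/- stem cells, and was called higher there (log2 1.34 ± 0.24, adjusted p = 0.00526). At the end of the course it stood at 251, 242 and 300 CPM against 308, 249 and 247 CPM, with an effect of 0.01 ± 0.17. The interaction was -1.33 ± 0.30 (adjusted p = 0.0406), and the call was lost without any of 8 of the 12 libraries (adjusted p up to 0.15). COL11A1, its partner in cartilage fibrils, had 13.8, 20.7 and 12.4 CPM against 36.6, 37 and 43.6 CPM in stem cells and overlapping groups at Day 12. Its interaction, -1.60 ± 0.37, just missed the threshold (adjusted p = 0.0548), and passed it without hESC LIS1+/+ replicate 2 (0.0483) or Day 12 LIS1+/+ replicate 1 (0.0302). COL13A1, a transmembrane collagen, had an interaction of -2.74 ± 0.66 (adjusted p = 0.0659, and 0.0284 without Day 12 LIS1+/+ replicate 3), with a call at Day 12 and overlapping groups in stem cells. COL1A2, a chain of type I collagen, had an interaction of -1.90 ± 0.47 (adjusted p = 0.109), which was called by DESeq2 (0.01) and without Day 12 LIS1+/+ replicate 2 (-2.29, adjusted p = 3.73e-05).

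COL1A1, the other type I chain, had a stem cell effect below 0 (-0.57 ± 0.30, adjusted p = 0.489), with 154, 152 and 141 CPM in LIS1+/+ and 96, 120 and 84 CPM in LIS1+/-. In organoids it was called lower in LIS1+/- (log2 -1.62 ± 0.36, adjusted p = 0.0179), and its interaction was -1.04 ± 0.47 (adjusted p = 0.538, and 0.0333 without Day 12 LIS1+/+ replicate 2). COL4A1, the main basement membrane collagen chain, had an interaction of -0.69 ± 0.22 (adjusted p = 0.262).

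Other matrix lists held 1 or 2 calls each, all negative, where 0.36% of all tested genes were called negative. MFAP4, a microfibril protein of elastic fibres, was the called member of the 29 matrix glycoproteins tested, whose median interaction was -0.67. It stood at 25.2, 26.1 and 29.2 CPM in LIS1+/+ and at 58.1, 39.7 and 29.6 CPM in LIS1+/- stem cells. In organoids at Day 12 it stood at 173, 30.8 and 67.6 CPM in LIS1+/+ and at 4.95, 8.25 and 4.27 CPM in LIS1+/- organoids, a 15-fold fitted difference (log2 -3.91 ± 0.48, adjusted p = 0.000193). The stem cell groups only just separated (log2 0.64 ± 0.43, adjusted p = 0.605), and the interaction was -4.55 ± 0.64 (adjusted p = 0.00155). LTBP1, which stores latent TGF-beta in the matrix, had an interaction of -1.59 ± 0.37 (adjusted p = 0.0516, and 0.00791 without Day 12 LIS1+/+ replicate 1).

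GPC3, a heparan sulfate proteoglycan at the cell surface, was the called member of the 18 proteoglycans tested. It stood at 414, 339 and 422 CPM in LIS1+/+ and at 542, 641 and 573 CPM in LIS1+/- stem cells, and at 1550, 2030 and 2160 CPM against 1450, 1290 and 1220 CPM at Day 12. The groups separated in opposite directions at both stages. Neither arm was called alone (adjusted p = 0.0806 and 0.0654), while the interaction was -1.12 ± 0.21 (adjusted p = 0.0116, and 0.0558 without Day 12 LIS1+/- replicate 3).

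Among the 39 matrix enzymes and collagen maturation genes tested, PCOLCE and TIMP3 were called, and the median interaction was -0.46 (-0.43 with 2 members that had an empty group set at the floor of 3 counts). TIMP3, an inhibitor of matrix metalloproteinases that is held in the matrix, stood at 9.05, 16.7 and 6.21 CPM in LIS1+/+ and at 20.2, 28.4 and 38.6 CPM in LIS1+/- stem cells. By Day 12 it stood at 32.3, 49.7 and 30.7 CPM against 23.5, 21.9 and 22.8 CPM, with no overlap at either stage. Its interaction was -2.21 ± 0.47 (adjusted p = 0.0271), lost without any of 7 of the 12 libraries (adjusted p up to 0.146). PCOLCE, which speeds the trimming of fibrillar procollagens, had an interaction of -2.58 ± 0.58 (adjusted p = 0.046), lost without any of 10 of the 12 libraries (adjusted p up to 0.179), and stood at 57.5, 13.8 and 19 CPM in LIS1+/+ against 4.95, 7.11 and 7.98 CPM in LIS1+/- organoids. LOXL2, which crosslinks collagen, had an interaction of -1.33 ± 0.31 (adjusted p = 0.0577), which passed the threshold without hESC LIS1+/- replicate 2 (0.022) or Day 12 LIS1+/+ replicate 2 (0.00892).

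**Figure D3:**
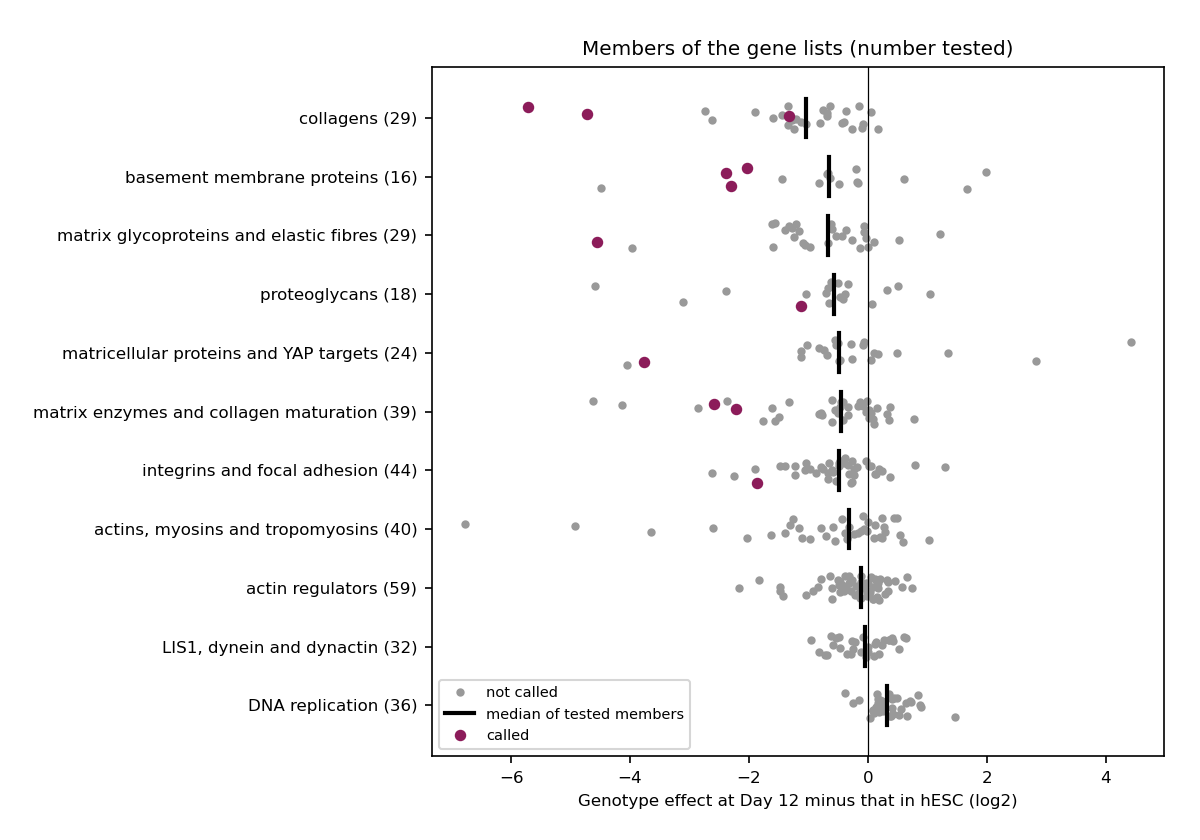
Interaction (log2, Day 12 genotype effect minus stem cell genotype effect) of every tested member of 11 gene lists, with the number tested in brackets. Purple points are called genes and black bars list medians. Medians run from -1.04 for collagens to 0.31 for DNA replication, and the called members of the lists shown all lie left of 0.

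No gene of the contractile apparatus proper was called. Of the 40 actins, myosins and tropomyosins tested, 0 were called by edgeR, 2 by DESeq2 (both negative), and 10 had an unadjusted p under 0.05, all 10 negative. Over all 12215 tested genes, 652 were negative and 339 positive at an unadjusted p under 0.05, and DESeq2 called 102 negative and 18 positive. The median interaction of the 40 was -0.33, with 28 below 0 (70%, against 52.7% of all tested genes). Their median effect was 0.30 in stem cells and 0.05 at Day 12. Without the 3 libraries whose counts fell with GC content the median interaction was -0.17. The summed level of the list was 24000 to 25900 CPM in LIS1+/+ and 31500 to 33300 CPM in LIS1+/- stem cells. At Day 12 it was 10700 to 11300 CPM in LIS1+/+ and 10200 to 10600 CPM in LIS1+/- organoids, so the order of the groups was opposite at the ends, without overlap.

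MYL9, a regulatory light chain of non-muscle and smooth muscle myosin II, came nearest among the well-counted genes. It stood at 517, 648 and 405 CPM in LIS1+/+ and at 944, 914 and 868 CPM in LIS1+/- stem cells (log2 0.80 ± 0.19, adjusted p = 0.0579). The Day 12 values were 27.8, 20.8 and 35.5 CPM against 26.6, 13.9 and 20.8 CPM, with overlap (log2 -0.52 ± 0.25, adjusted p = 0.392). Its interaction was -1.31 ± 0.32 (adjusted p = 0.0633), which passed the threshold without hESC LIS1+/+ replicate 2 (0.0447) or Day 12 LIS1+/+ replicate 2 (0.0128). MYL4, an atrial and embryonic light chain, had 11 counts in LIS1+/+ and 0 in LIS1+/- organoids, so that it was at least 6.1-fold lower when the empty group is set to a floor of 3 counts in all; its interaction had an adjusted p of 0.0577, and of 0.00765 without Day 12 LIS1+/+ replicate 2.

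ACTB and several actin-binding proteins had fitted effects above 0 in stem cells and below 0 at Day 12, and none was called in the interaction. ACTB, cytoplasmic beta actin, stood at 2530, 2700 and 2110 CPM in LIS1+/+ and at 3180, 3470 and 3270 CPM in LIS1+/- stem cells, without overlap. At the end of the course it stood at 1540, 1360 and 1300 CPM against 1450, 1110 and 1220 CPM, with overlap, and its interaction was -0.59 ± 0.20 (adjusted p = 0.307). TAGLN, a calponin-like marker of smooth muscle and of stress fibres, stood at 2980, 3050 and 1790 CPM in LIS1+/+ and at 5930, 5000 and 4850 CPM in LIS1+/- stem cells. Its low wild-type library is hESC replicate 3, which also stood apart in GC content. At Day 12 TAGLN had 33, 3.77 and 16.1 CPM against 21, 12 and 13.1 CPM, and its interaction was -1.26 ± 0.57 (adjusted p = 0.563). The TAGLN interaction was called without the libraries that stood apart in GC content (-1.51, adjusted p = 0.041) and without Day 12 LIS1+/+ replicate 2, its low library at that stage (-1.72, adjusted p = 0.0361). With hESC LIS1+/+ replicate 3 alone left out it was not called. For CALD1, caldesmon, the interaction was -1.15 ± 0.32 (adjusted p = 0.148, and 0.0226 without hESC LIS1+/- replicate 1), and for the tropomyosins TPM1 and TPM2 it was -0.70 ± 0.24 and -1.10 ± 0.36 (adjusted p = 0.316 and 0.293). TPM2 passed the threshold without Day 12 LIS1+/+ replicate 2 (-1.42, adjusted p = 0.00696). The 59 actin regulators tested include small GTPases, kinases, cofilins and ERM proteins. They had a median of -0.12 and 0 calls by edgeR and by DESeq2. At an unadjusted p under 0.05, 3 were negative and 2 positive, against 652 and 339 of all 12215 tested genes.

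At the adhesions that couple this apparatus to the matrix, FLNC was the called member of 44 tested (0.36% of all tested genes were called negative). Of these 44, 35 lay below 0 (79.5%, against 52.7% of all tested genes) and the median interaction was -0.48. The list summed to 8220 to 9700 CPM in LIS1+/+ and 12300 to 12600 CPM in LIS1+/- stem cells, and to 3590 to 4970 CPM and 4670 to 4890 CPM at Day 12, where the groups overlapped. VCL, vinculin, which reinforces adhesions under load, stood at 1620, 1830 and 1890 CPM in LIS1+/+ and at 2360, 2440 and 2470 CPM in LIS1+/- stem cells. In organoids at Day 12 it stood at 271, 221 and 239 CPM against 195, 190 and 243 CPM. Its interaction was -0.66 ± 0.19 (adjusted p = 0.17), called by DESeq2 (0.0279) and without the libraries that stood apart in GC content (0.0423). CSRP1, a LIM protein of actin bundles, went the other way, with an interaction of 1.30 ± 0.45 (adjusted p = 0.316).

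**Figure D4:**
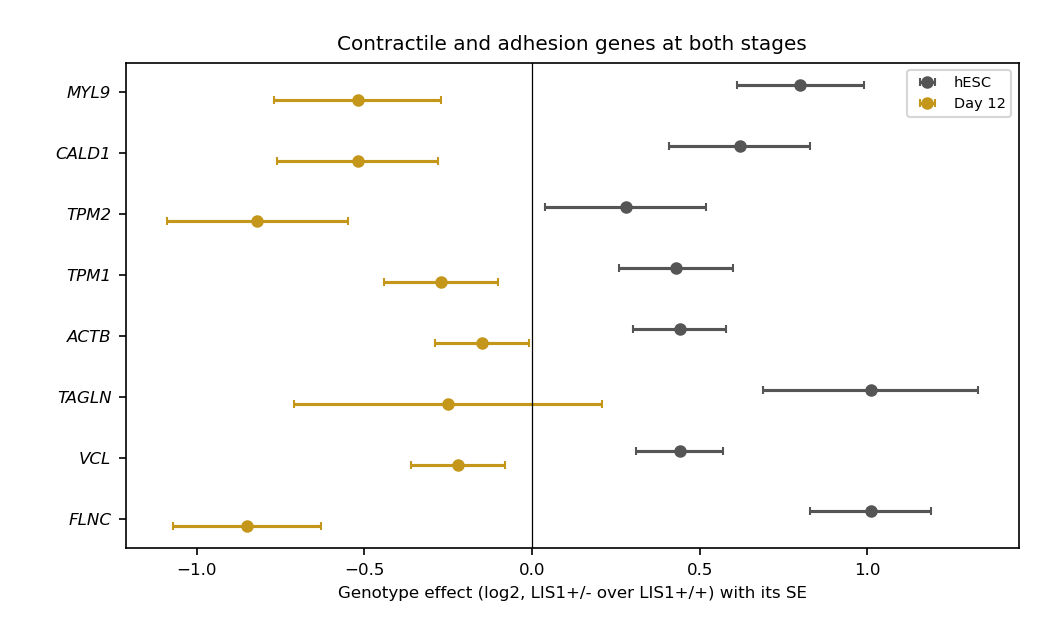
Genotype effect (log2 of LIS1+/- over LIS1+/+, horizontal axis) with its standard error for 8 contractile and adhesion genes, in stem cells in grey and at Day 12 in gold. All 8 stem cell values lie right of 0 and all 8 Day 12 values left of it, and among these genes only FLNC was called in the interaction. The 8 were picked from the genes named here and do not stand for a list. Over the 40 actins, myosins and tropomyosins tested, the median Day 12 effect was 0.05, and 28 of 40 interactions lay below 0.

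TWIST1 had the greatest fitted interaction among the called genes. It is a transcription factor of mesenchyme. TWIST1 stood at 22.4, 28.1 and 24.2 CPM in LIS1+/+ and at 96, 80.7 and 75.4 CPM in LIS1+/- stem cells. By Day 12 it stood at 200, 17 and 68.1 CPM in LIS1+/+ and at 4.95, 2.28 and 3.42 CPM in LIS1+/- organoids. Both separations were complete and in opposite directions, with an effect of 1.76 ± 0.54 in stem cells (adjusted p = 0.212) and of -4.82 ± 0.67 at Day 12 (adjusted p = 0.00104). The interaction of TWIST1 was -6.57 ± 0.86 (adjusted p = 0.00155).

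Marker lists of mesenchyme and neural crest were also lower in LIS1+/- organoids, while in stem cells only the mesenchyme list separated by genotype. The mesenchyme list had 9 of 17 members tested, all 9 below 0, against 52.7% of all tested genes. A member high in LIS1+/+ organoids alone could enter the test through that group, which favours a value below 0. PRRX1 did so, at 37.5, 6.92 and 14.6 CPM there and at most 3.71 CPM in every other library. The share below 0 is therefore a description only. Of the 9, 1 was called, where 0.36% of all tested genes were called negative. The list median was -2.51, or -2.38 with 2 members that had an empty group set at a floor of 3 counts. It summed to 62.9, 66.8 and 53.4 CPM in LIS1+/+ and to 141, 113 and 116 CPM in LIS1+/- stem cells. At Day 12 it summed to 512, 92.5 and 209 CPM in LIS1+/+ and to 63.1, 42.7 and 42.2 CPM in LIS1+/- organoids. TWIST1 is a member of this list and carried most of its difference in stem cells. TWIST2, PRRX1, PRRX2, PDGFRA and PDGFRB overlapped between the genotypes in stem cells. The neural crest list had 15 tested members, 12 of them below 0 (80%, against 52.7% of all tested genes), and a median of -2.03. It summed to 623, 196 and 354 CPM in LIS1+/+ and 130, 122 and 113 CPM in LIS1+/- organoids. In stem cells it summed to 231 to 248 CPM in LIS1+/+ and 219 to 266 CPM in LIS1+/-, with overlap. FOXD3, a neural crest specifier that stem cells also express, had 69 counts in LIS1+/+ organoids and 0 in LIS1+/- organoids. The 69 came from replicates 1 and 3, at 27.8 and 12.7 CPM, while replicate 2 had 0, like every LIS1+/- organoid library. Pooled, FOXD3 was at least 38.3-fold lower by the same floor, a value that leaves out the spread among the LIS1+/+ libraries. The FOXD3 interaction was not called (adjusted p = 0.0966). It was called by DESeq2 (adjusted p = 0.0031), with the replicate block (0.000987) and without Day 12 LIS1+/+ replicate 2 (2.2e-05). SOX10, the defining neural crest factor, stood at 87.9, 5.66 and 36 CPM against 1.85, 0.569 and 1.42 CPM at Day 12 (interaction adjusted p = 0.177), and SNAI2 and NGFR had interaction adjusted p values of 0.0915 and 0.0593. Without Day 12 LIS1+/+ replicate 2, the lowest wild-type library for these lists, SOX10, SNAI2 and NGFR passed the threshold (adjusted p = 0.00355, 0.019 and 0.00458), and DESeq2 called all 3 (0.0466, 0.0279 and 0.00971).

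Liver and endoderm genes followed the same wild-type libraries. That list had 4 of 19 members tested, with 0 called by edgeR or DESeq2. Of the 4, 3 were negative at an unadjusted p under 0.05, against 652 of all 12215 tested genes. Here too a member high in LIS1+/+ organoids alone could enter the test through that group, so this count is a description only. The list summed to 578, 28.3 and 92 CPM in LIS1+/+ and to 32.2, 23.6 and 15.7 CPM in LIS1+/- organoids. AFP, the fetal liver serum protein, stood at 120, 3.15 and 7.3 CPM against 0.618, 0.569 and 0.855 CPM, and its interaction was called without any 1 of the 3 wild-type organoid libraries (-6.83 to -3.32, adjusted p = 0.0122 to 0.0465) and with the replicate block (0.00556). APOA1, an apolipoprotein, stood at 193, 13.8 and 40.9 CPM against 6.8, 8.54 and 5.98 CPM. Replicate 1 of the wild-type organoids was the highest and replicate 2 the lowest in the mesenchyme, neural crest and liver lists, as in COL3A1, MFAP4 and TWIST1. The surface ectoderm and epithelium list had 9 of 14 members tested, with 0 called by edgeR and 1 by DESeq2. Of the 9, 5 were negative at an unadjusted p under 0.05, against the same 652 of 12215. This list summed to 114, 49.1 and 50.1 CPM in LIS1+/+ and to 26, 34.7 and 31.3 CPM in LIS1+/- organoids, without overlap. The endothelium and blood list summed to 44.6, 5.66 and 19 CPM against 7.42, 11.7 and 9.4 CPM, and CDH5, the cadherin of endothelium, stood at 5.82, 0.629 and 1.46 CPM against 1.24, 1.14 and 0 CPM. The muscle and heart list overlapped, at 8.81 to 40.7 CPM and 11.1 to 23.7 CPM. PECAM1, TP63, KRT5 and MYOG, defining genes on these lists, had no counts in any of the 12 libraries, which allows up to 3 counts in a library. The part of other cell types in the Day 12 differences of the matrix genes was not tested.

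**Figure D5:**
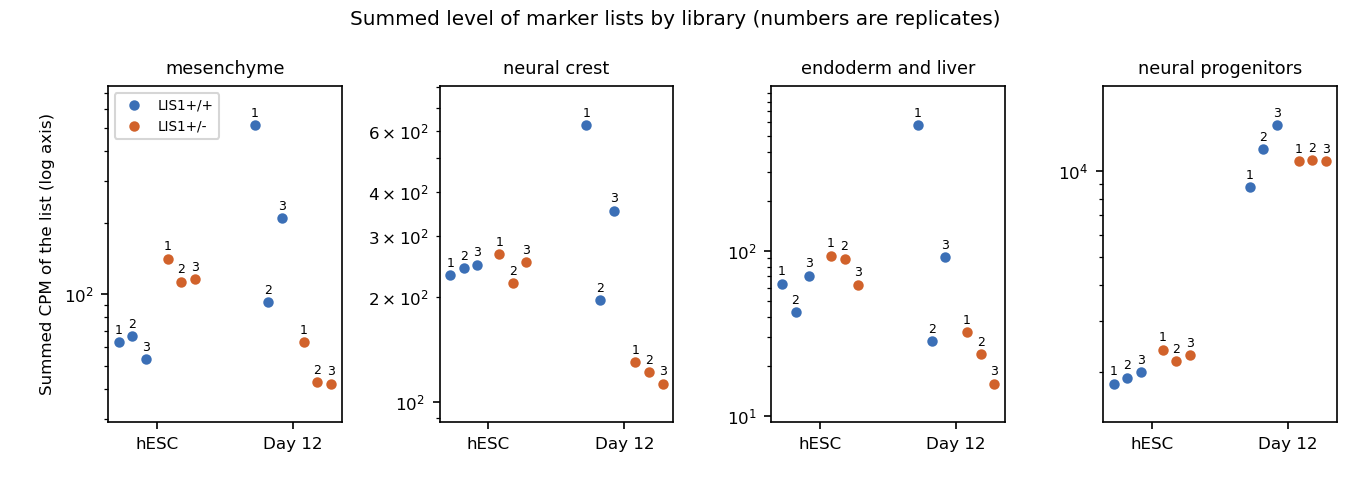
Summed level in CPM (log axis) of 4 marker lists in each library of both genotypes, in stem cells and at Day 12; the small numbers are replicates. LIS1+/+ organoid replicate 1 is the highest for mesenchyme (512 CPM), neural crest (623 CPM) and endoderm and liver (578 CPM) and the lowest at Day 12 for neural progenitors (8780 CPM).

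Called genes whose wild-type organoids lay closer together included PKDCC, FST and SLC2A3. PKDCC, a secreted tyrosine kinase that phosphorylates matrix proteins, had the joint smallest adjusted p. It stood at 408, 425 and 376 CPM in LIS1+/+ and at 352, 383 and 391 CPM in LIS1+/- stem cells, with overlap. At Day 12 it stood at 162, 112 and 118 CPM in LIS1+/+ and at 30.3, 35 and 29.1 CPM in LIS1+/- organoids, 4.12-fold lower (log2 -2.04 ± 0.18, adjusted p = 1.3e-07), and the interaction was -1.94 ± 0.24 (adjusted p = 7.44e-05). PKDCC was already called lower in LIS1+/- at Day 5 (log2 -1.01, adjusted p = 0.000418). It is 1 of 12 called genes named here that the rule for named genes did not take, chosen after their values were seen; the others are PMEL, PRKCD, RILPL1, PCK2, S1PR3, DDIT4, CTNNBIP1, PEAR1, TRIB3, GADD45A and DDIT3.

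FST, follistatin, which binds activins, stood at 166, 164 and 220 CPM in LIS1+/+ and at 176, 197 and 202 CPM in LIS1+/- stem cells. At the end of the course it stood at 51, 79.3 and 88.1 CPM in LIS1+/+ and at 21, 17.4 and 32.8 CPM in LIS1+/- organoids. The groups overlapped in stem cells and separated at Day 12, with a stem cell effect of 0.07 ± 0.21 and an interaction of -1.68 ± 0.31 (adjusted p = 0.0116, up to 0.0498 over the alternatives). SLC2A3, the GLUT3 glucose transporter of neurons, had an interaction of -1.53 ± 0.28 (adjusted p = 0.00907, and 0.0524 without Day 12 LIS1+/- replicate 3). It stood at 149, 90.6 and 115 CPM in LIS1+/+ and at 53.8, 56.1 and 35.1 CPM in LIS1+/- organoids.

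The WNT list had 3 called members of 41 tested, all negative (0.36% of all tested genes were called negative): FRZB, a secreted inhibitor, FZD8, a receptor, and LGR4, a receptor of R-spondins. LGR4 stood at 33.6, 41.5 and 29.7 CPM in LIS1+/+ and at 11.7, 12.8 and 13.7 CPM in LIS1+/- organoids, and its groups overlapped in stem cells. Its interaction was -1.39 ± 0.28 (adjusted p = 0.0214), FZD8 had -1.59 ± 0.33 (0.0257) and FRZB -1.85 ± 0.38 (0.0231). Each of the 3 lost its call without any of 6 or 7 of the 12 libraries (adjusted p up to 0.126). CTNNBIP1, an inhibitor of beta-catenin outside that list, was called higher in LIS1+/- stem cells (75.2, 62.8 and 62.7 CPM against 148, 131 and 143 CPM) and overlapped at Day 12; its interaction of -1.09 ± 0.24 lost its call without any of 11 of the 12 libraries (adjusted p up to 0.115).

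Neural progenitor genes had 3 negative calls (DLK1, SOX3, SIX3) and 1 positive call (ZIC2) among 29 tested. Of all tested genes, 0.36% were called negative and 0.0164% positive. The median interaction of the list was -0.78 (-0.65 with 3 members that had an empty group set at the floor). SOX3, a SoxB1 factor of neural progenitors, stood at 304, 263 and 261 CPM in LIS1+/+ and at 408, 352 and 331 CPM in LIS1+/- stem cells, and at 925, 1920 and 2060 CPM against 820, 763 and 738 CPM at Day 12. The order of the groups was opposite at the ends, and the interaction was -1.48 ± 0.28 (adjusted p = 0.0116, and 0.0549 without Day 12 LIS1+/- replicate 3). SIX3, a forebrain and eye field factor, was called higher in LIS1+/- stem cells (52.9, 65.5 and 64.6 CPM against 129, 113 and 135 CPM). In the organoids its groups overlapped, at 128, 304 and 272 CPM against 192, 203 and 181 CPM, and its interaction of -1.34 ± 0.30 lost its call without any of 11 of the 12 libraries (adjusted p up to 0.164). HES4, a Notch target, was also called higher in LIS1+/- stem cells (6.67, 21.4 and 13 CPM against 94.1, 69 and 55.2 CPM, adjusted p = 0.00526), with an interaction of -2.06 ± 0.49 that was not called (adjusted p = 0.0869) but passed the threshold with DESeq2 (0.00236) and without hESC LIS1+/+ replicate 2, Day 12 LIS1+/+ replicate 1 or Day 12 LIS1+/+ replicate 2 (0.0394 to 0.0456). NR2F1, a patterning factor of the cortex, had an interaction of -1.36 ± 0.33 (adjusted p = 0.0707, and 0.00916 without hESC LIS1+/- replicate 2).

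The 2 positive interactions were ZIC2 and CD9. ZIC2, a zinc finger factor of the neural plate, stood at 231, 240 and 258 CPM in LIS1+/+ and at 207, 187 and 200 CPM in LIS1+/- stem cells. In organoids at Day 12 it stood at 399, 364 and 367 CPM against 651, 570 and 567 CPM, so that the LIS1+/- libraries were all lower at the start and all higher at the end. Its interaction was 0.96 ± 0.19 (adjusted p = 0.02). The call was lost without any of 5 of the 12 libraries (adjusted p up to 0.0703) and after removal of the GC trend (0.255). ZIC2 was called lower in LIS1+/- at Day 5 (log2 -0.74, adjusted p = 0.00185). CD9, a tetraspanin of the stem cell surface, stood at 476, 441 and 475 CPM against 298, 289 and 303 CPM in stem cells, and at 49.1, 43.4 and 35 CPM against 57.5, 62.9 and 58.7 CPM at Day 12, again with opposite orders. Its interaction was 1.14 ± 0.25 (adjusted p = 0.0355, up to 0.107 without any of 10 of the 12 libraries), and at Day 5 its effect was -2.63.

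Genes of DNA replication lay mostly above 0, without a call. Of 36 tested, 3 lay below 0 (8.33%, against 52.7% of all tested genes) and the median was 0.31. Of these 36, 0 were called by edgeR and 1 by DESeq2, and 10 had an unadjusted p under 0.05, all 10 positive. Over all 12215 tested genes, 339 were positive at an unadjusted p under 0.05, and DESeq2 called 18 positive. CDC45, a helicase subunit, stood at 82.4, 82.8 and 107 CPM in LIS1+/+ and at 61.2, 55.4 and 59.5 CPM in LIS1+/- stem cells, and at 58.2, 62.9 and 63.8 CPM against 81.6, 74 and 68.4 CPM at Day 12. The groups separated in opposite directions, with an interaction of 0.90 ± 0.25 (adjusted p = 0.133, and 0.0443 by DESeq2). GINS4 and MCM6, of the same helicase, had interactions of 0.87 ± 0.28 and 0.66 ± 0.23 (adjusted p = 0.272 and 0.316).

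The remaining called genes were of mixed function, and all had negative interactions. S1PR3, a receptor for sphingosine 1-phosphate, was called higher in LIS1+/- stem cells (9.05, 19.4 and 20.5 CPM against 41, 37 and 41.1 CPM), with overlap at Day 12, and had an interaction of -1.66 ± 0.35. RILPL1, a regulator of what enters primary cilia, had 8.09, 10.7 and 13.7 CPM against 22.7, 22.5 and 26 CPM in stem cells and an interaction of -1.61 ± 0.33. S1PR3 lost its call without any of 6 of the 12 libraries and RILPL1 without any of 4 (adjusted p up to 0.115 for each). DDIT3, DDIT4, TRIB3, PCK2 and GADD45A, genes induced by cell stress or amino acid shortage, had interactions of -1.49, -1.31, -1.63, -1.18 and -1.74. None of these 5 was called in stem cells, DDIT3, DDIT4 and TRIB3 were called lower in LIS1+/- at Day 12, and each lost its interaction call without any of 7 to 11 of the 12 libraries (adjusted p up to 0.167). TRIB3 stood at 53.6, 47.2 and 51.6 CPM in LIS1+/+ and at 21, 22.5 and 15.7 CPM in LIS1+/- organoids.

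G0S2, an inhibitor of fat breakdown, stood at 33, 4.4 and 6.33 CPM in LIS1+/+ and at 0.618, 1.71 and 0.855 CPM in LIS1+/- organoids (interaction -4.60 ± 0.81, adjusted p = 0.00748, and 0.0524 without Day 12 LIS1+/- replicate 3). S100A11, a calcium-binding protein of motile and epithelial cells, stood at 80.8, 8.18 and 33.6 CPM against 3.71, 5.69 and 4.56 CPM (interaction -3.48 ± 0.67), and PAMR1, a secreted protease-like protein, at 16.8, 6.29 and 7.3 CPM against 0.618, 2.56 and 0.855 CPM (interaction -3.49 ± 0.68). Both lost their call when libraries were left out, S100A11 for 8 and PAMR1 for 5 of the 12 (adjusted p up to 0.124 and 0.114). These 3 shared the high wild-type replicate 1 of the mesenchyme list. PODXL, a sialomucin of the stem cell surface, stood at 51, 49.1 and 62.8 CPM against 25.4, 29 and 35.3 CPM at Day 12, and its interaction of -1.03 ± 0.24 was lost without any of 10 of the 12 libraries (adjusted p up to 0.147).

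MEIS2 and EYA2, transcriptional regulators of many embryonic tissues, stood at 58.2, 39.6 and 27.7 CPM against 6.18, 7.4 and 11.7 CPM and at 35.5, 11.3 and 24.8 CPM against 6.18, 7.11 and 5.98 CPM at Day 12, and both were called lower there. Their interactions were -2.71 ± 0.59 and -3.36 ± 0.75, lost without any of 7 and 9 of the 12 libraries (adjusted p up to 0.214 and 0.195). SHISA2, which holds WNT and FGF receptors back from the surface, had 9.69, 22.6 and 25.3 CPM against 6.18, 3.7 and 3.13 CPM at Day 12 and an interaction of -2.96 ± 0.54 (adjusted p = 0.0104, and 0.0558 without Day 12 LIS1+/- replicate 3). PRKCD, a protein kinase C, and PMEL, the fibril protein of pigment granules, had interactions of -2.54 ± 0.49 and -1.81 ± 0.34, with Day 12 levels of 12.9, 9.44 and 11.2 CPM against 2.47, 3.13 and 2.28 CPM and of 176, 81.8 and 146 CPM against 58.1, 49.8 and 47.6 CPM. PRKCD lost its call without Day 12 LIS1+/- replicate 3 (adjusted p = 0.083), and PMEL without it or without hESC LIS1+/- replicate 3 (up to 0.0558).

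For 3 called genes the stem cell arm rested on few counts. AFAP1L2, an adaptor of the actin filament-associated protein family, had 17 counts over the LIS1+/- and 1 over the LIS1+/+ stem cell libraries, a pooled ratio of 13.5 with a 95% counting interval of 2.11 to 563. PEAR1, a receptor of platelets and endothelium, had 24 and 3, a ratio of 6.34 with an interval of 1.92 to 32.9. BACH2, a transcriptional repressor, stood at 0.476, 2 and 1.24 CPM in LIS1+/+ and at 10.1, 5.41 and 7.57 CPM in LIS1+/- stem cells and was called higher there (adjusted p = 0.0181). Each of the 3 lost its interaction call without any of 10 of the 12 libraries (adjusted p up to 0.238). Intervals cover counting error only.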

How the data were processed

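Bulk MARS-seq libraries of WIBR3 stem cells and organoids were analysed, 3 in each of 6 groups. The authors deposited 1 table per library of raw, whole-number counts by gene symbol. The submitters' processing notes list cutadapt, STAR, DESeq2 and the builds GRCh37 and hg38, without their roles. The handling of strand and of molecular identifiers was not given in the sources used here. All 26485 gene rows were used and the 5 closing rows dropped. After filterByExpr, 12215 genes were scaled by TMM and tested with edgeR 4.0.16 (R 4.3.3; robust quasi-likelihood, 18 libraries, 1 coefficient per group, 12 residual degrees of freedom). Two-sided p-values were Benjamini-Hochberg adjusted over all tested genes.

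The 12 libraries, the 26 gene lists and the naming rule were chosen with earlier results of these data known. The rule took PAFAH1B1, the 15 greatest interactions per direction with at least 10 CPM in the highest group, and list members by call and p; not all are printed, and 1 called gene is not reported here. On data simulated with 12009 genes, the interaction test recovered 16% of 2-fold and 71% of 4-fold changes. These changes were planted in better-counted genes and in the Day 12 LIS1+/- libraries only. Recovery for genes with few counts was not measured. Alternatives were DESeq2 1.42.0, its size factors, no filter, 12 libraries, a replicate block, GC corrections and each library left out. GC content came from the last 500 bases of GENCODE transcripts.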

Additional observations from a re-analysis of the deposited data

Results flagged for a closer look

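A test of the difference itself, the interaction, separated the genotype effect at Day 12 from that in stem cells for the called genes listed here; each value in brackets is the interaction on the log2 scale.
Matrix and adhesion genes were COL3A1 (-5.72), COL12A1 (-4.72), COL2A1 (-1.33), NID1 (-2.04), LAMB1 (-2.30), SMOC1 (-2.38), MFAP4 (-4.55), GPC3 (-1.12), SPP1 (-3.76), TIMP3 (-2.21), PCOLCE (-2.58) and FLNC (-1.87). The mesenchyme regulator TWIST1 stood at -6.57. Neural progenitor genes with a negative interaction were DLK1 (-2.86), SOX3 (-1.48) and SIX3 (-1.34). WNT pathway genes were FRZB (-1.85), FZD8 (-1.59), LGR4 (-1.39) and CTNNBIP1 (-1.09). Genes induced by cell stress were DDIT3 (-1.49), DDIT4 (-1.31), TRIB3 (-1.63), PCK2 (-1.18) and GADD45A (-1.74). The other negative ones were PEAR1 (-5.10), G0S2 (-4.60), AFAP1L2 (-4.5), PAMR1 (-3.49), S100A11 (-3.48), EYA2 (-3.36), SHISA2 (-2.96), BACH2 (-2.87), MEIS2 (-2.71), PRKCD (-2.54), PKDCC (-1.94), PMEL (-1.81), FST (-1.68), S1PR3 (-1.66), RILPL1 (-1.61), SLC2A3 (-1.53), CDKN1C (-1.31) and PODXL (-1.03). The positive ones were ZIC2 (0.96) and CD9 (1.14).
Groups of 3 libraries were too small for an outlier test.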

How the results depend on the processing

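The 46 interaction calls (44 negative, 2 positive) became 172 (154 and 18) with no filter beyond 1 count, 120 (102 and 18) with DESeq2, and 158 (131 and 27) without the 3 libraries that stood apart in GC content. They became 35 in the fit of the 12 libraries alone (4 positive, 30 of the 46 shared), and 61 with the GC trend removed (6 positive, 43 shared). With the replicate block there were 30 (29 and 1, 24 shared). To see whether the replicate numbers pair libraries, each library's deviation in log2 CPM from its own group mean was taken. These deviations were correlated between LIS1+/+ and LIS1+/- libraries of the same stage. Same-numbered pairs correlated at 0.02 to 0.1 in stem cells, 0.04 to 0.08 at Day 12 and -0.13 to -0.01 at Day 5. Differently numbered ones correlated at -0.07 to 0.04, -0.06 to 0.01 and -0.07 to 0.13. These correlations are small, and whether the numbers pair the libraries was not settled. File names give all 3 LIS1+/- stem cell libraries the number 1, so their place in the block rests on the labels. Leaving out each library in turn gave 11 to 138 calls, 11 to 123 negative and 0 to 15 positive; Day 12 LIS1+/- replicate 3 gave the fewest and Day 12 LIS1+/+ replicate 2 the most. Negative calls made up 95.7% of all with TMM and with DESeq2 size factors, 85% with DESeq2 and 82.9% without the 3 libraries. The 60 calls in stem cells became 206 with no filter, 131 with DESeq2, 99 with the GC trend removed, and 21 to 112 with a library left out. The 171 at Day 12 became 483, 294 and, without the 3 libraries, 381, and 57 to 332 with a library left out. The cause of these shifts was not tested.

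The PAFAH1B1 interaction (-0.11) turned to 0.02 without hESC LIS1+/+ replicate 2, 0.12 without Day 12 LIS1+/+ replicate 2 and 0.05 without Day 12 LIS1+/- replicate 3, and ranged from -0.29 to 0.12 with a library left out. Its Day 12 effect missed the threshold in the fit of 12 libraries (-0.78, adjusted p = 0.0616), without the 3 libraries (-0.55, 0.08), and with single libraries left out (-0.91 to -0.55, up to 0.288). The collagen median (-1.04) was -0.77 in the fit of 12 libraries and -1.27 to -0.52 with a library left out; that of actins, myosins and tropomyosins (-0.33) was -0.17 without the 3 libraries. At this depth a 2-fold interaction planted in better-counted genes was recovered in 16% of simulated cases.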
